A study of Mus musculus with 14 samples.

Results

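The cyclin-dependent kinase (CDK) inhibitors and the D-type cyclins were followed at the RNA level in mouse macrophages. The 9 genes were Cdkn1a, Cdkn1b and Cdkn1c (the CIP/KIP inhibitors p21, p27 and p57), Cdkn2b, Cdkn2c and Cdkn2d (the INK4 inhibitors p15, p18 and p19), and the cyclins Ccnd1, Ccnd2 and Ccnd3. They were chosen by name, through the RefSeq accession of each array probe, with earlier results of these data known; no threshold was applied, and the fall of Cdkn1c in wild-type cells had already been seen. Their values are therefore a description, and the adjusted p-values given with them come from the fit over all genes and are not independent evidence. The array carried 12 probes for the 9 genes, and 8 of the 9 genes (all but Cdkn2b) were among the 15834 genes that passed the filter on dim probes. A gene could pass the filter through 1 bright group alone, and Cdkn1c and Ccnd2 were each below background on some arrays of another group.

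D-type cyclins bind CDK4 and CDK6, and these kinases phosphorylate the retinoblastoma protein, which releases E2F factors to switch on the genes of S phase. INK4 proteins bind CDK4 and CDK6 themselves and keep the cyclins off, whereas CIP/KIP proteins bind assembled cyclin-CDK complexes and restrain CDK2 in particular. In bone marrow macrophages the growth factor M-CSF induces D cyclins and drives division, and activating stimuli are known to induce p21 and to stop it.

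All cells were bone marrow-derived macrophages of female C57BL/6 mice aged 8 weeks that carried LysM-Double-Cre, so the Cre recombinase driven by the myeloid lysozyme promoter was present in the controls too. Transgenic mice carried in addition the TFEB transgene, which encodes a transcription factor of lysosomal and autophagy genes, and wild-type here means transgene-negative. Marrow was cultured with recombinant M-CSF for 1 week and the replated cells then received DMEM alone (control) or DMEM with medium conditioned by EO771 cells, a mouse mammary tumour line, and tumour lysate (tumour) for 24 h. There were 3 wild-type control, 3 wild-type tumour, 3 transgenic control and 2 transgenic tumour replicates (numbers 2 and 3) on 14 one-colour arrays. Replicate 3 of every group but the transgenic control was hybridised on 2 arrays, which were averaged in the levels given here. The fit behind each SE and adjusted p did not average them. It used all 14 arrays with repeat arrays as a random block, whose low correlation (0.0614) let them count almost as separate samples. The labels do not say whether replicates were separate mice, pools or cultures, or whether control and tumour cells came from the same mice, so the p-values measure the spread between these samples only.

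Levels are log2 of the scanner signal relative to the 75th percentile of the same array, so that 0 is that percentile. Between 35.5% and 40.2% of spots on an array were well above background. Tfeb itself was above background on all 14 arrays. Its level was 0.99, 0.82 and 0.89 in the wild-type control replicates, 1.35, 1.36 and 0.86 in the transgenic control, -0.71, -0.69 and -0.60 in the wild-type tumour and 0.01 and -0.12 in the transgenic tumour replicates. The transgene effect on this probe was 0.31 ± 0.13 (SE, adjusted p = 0.167) in control medium and 0.69 ± 0.16 (adjusted p = 0.0267) with tumour material; the labels do not say whether the transgene carries this probe's sequence. The call with tumour material held in 11 of 23 other settings, with an adjusted p of up to 0.525. Of 9 macrophage markers, 8 (all but Lyz2) were above background on every array, while Lyz2, the lysozyme gene whose promoter drives the Cre, was above it on 1 of 4 wild-type control, 3 of 4 wild-type tumour and no transgenic arrays. All 5 epithelial or tumour cell markers were below background in every group. Transgenic control replicate 1 stood apart: it correlated at 0.959 and 0.957 with replicates 2 and 3 of its group, which correlated at 0.981 with each other. Its neutrophil precursor genes were the highest of the group (Mpo at 5.87 against 3.89 and 4.23). Its myeloid progenitor markers were mixed: the receptor gene Kit was the lowest of the group (-0.52 against 2.37 and 2.38), Myb (1.5 against -0.53 and -0.54), Prtn3 (0.51 against -1.22 and -0.79) and Cd34 (-1.93 against -2.94 and -3.07) were the highest, and Flt3 and Gata2 were below background. The summed linear level of the 9 neutrophil markers, all above background in this group, ran from 203 to 742 over the 3 transgenic control replicates and from 323 to 393 in the wild-type control. Member calls and list counts that changed without this replicate are given both ways, and the part of neutrophil precursors in them was not tested. In bulk RNA, fewer cells of a type and less RNA per cell cannot be told apart.

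Promoter sequence was available for 6 of the 9 genes, in 9 windows from RefSeq (GRCm38.p6); Cdkn1c, Ccnd1 and Ccnd2 had no entry. The windows shown are the 250 bases before the start, 5′ to 3′ on the gene's strand. The Cdkn1a pair is shown because its 2 probes carry accessions of 2 transcript variants and gave different values in transgenic cells, although the table does not say which start belongs to which variant; capitals mark a p53 half-site, the binding motif of the tumour suppressor that induces p21. Windows of Cdkn2c and Cdkn2d are shown because these were the INK4 genes called higher with the transgene; capitals mark the GC box GGGCGG or its reverse complement. Cdkn2c has 2 windows, of which the one with 3 GC boxes is printed and the other held 0.
Cdkn1a upstream start, chr17:29090729-29090978, plus strand: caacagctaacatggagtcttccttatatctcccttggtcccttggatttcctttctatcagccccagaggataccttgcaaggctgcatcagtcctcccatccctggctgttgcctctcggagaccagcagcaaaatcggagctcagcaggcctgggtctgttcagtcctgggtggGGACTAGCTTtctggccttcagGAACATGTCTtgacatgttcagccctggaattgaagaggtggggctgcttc
Cdkn1a downstream start, chr17:29093519-29093768, plus strand: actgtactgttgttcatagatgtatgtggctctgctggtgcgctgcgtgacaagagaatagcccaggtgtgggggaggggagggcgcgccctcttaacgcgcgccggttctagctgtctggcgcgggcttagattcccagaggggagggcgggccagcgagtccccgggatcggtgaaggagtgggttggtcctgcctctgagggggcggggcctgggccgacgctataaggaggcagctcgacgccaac
Cdkn2c, chr4:109666757-109667006, minus strand: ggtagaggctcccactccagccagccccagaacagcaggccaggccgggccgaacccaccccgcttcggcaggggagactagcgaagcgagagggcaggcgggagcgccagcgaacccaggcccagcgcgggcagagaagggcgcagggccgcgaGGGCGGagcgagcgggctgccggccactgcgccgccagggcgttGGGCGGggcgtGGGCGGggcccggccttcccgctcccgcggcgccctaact
Cdkn2d, chr9:21291210-21291459, minus strand: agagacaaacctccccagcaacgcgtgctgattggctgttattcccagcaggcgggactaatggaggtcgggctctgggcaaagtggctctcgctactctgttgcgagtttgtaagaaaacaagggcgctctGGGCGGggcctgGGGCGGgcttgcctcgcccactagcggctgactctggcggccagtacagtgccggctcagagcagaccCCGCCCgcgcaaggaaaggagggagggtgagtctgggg
Both strands were searched in 32851 such windows of all genes. The p53 half-site, searched by its name because its pattern is degenerate, matched 2 of the 9 member windows (the upstream Cdkn1a window, at 2 places, and the Cdkn2d window) and 7.13% of all windows. GC boxes were in 6 of the 9 member windows against 32.7% of all windows, and CCAAT in 3 of 9 against 33.8%. The E-box CACGTG, a motif bound by MYC and by the TFEB family, matched none of the 9 member windows and 6.02% of all windows. Neither TTTGGCGC, an E2F motif held by 0.417% of all windows, nor TATAAA, held by 12.4%, was in a member window. Each motif was searched on its own, so matches could overlap. A match is a run of letters and not a site shown to be used.

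Tumour material was followed by opposite changes within the family in wild-type cells. Cdkn1a and Ccnd2 rose, Cdkn1b, Cdkn2c and Ccnd3 fell, Cdkn1c dropped below background, and Cdkn2d and Ccnd1 did not pass the test. That made 2 of the 8 tested genes called higher and 4 lower at an adjusted p under 0.05 in limma. Over all 15834 genes, 23.2% were called higher and 16.8% lower in this comparison. That balance depended on the scaling: with quantile normalisation 19.4% were called higher and 20.5% lower. The median log2 difference was -0.48 over the 8 genes and 0.05 over all genes, and the groups did not overlap for 8 of the 8 genes and for 58.1% of all genes. In transgenic cells the called genes were Cdkn1a and Ccnd2, higher, and Cdkn1b, Cdkn1c and Cdkn2c, lower: 2 higher and 3 lower of 8, against 15.2% and 10.2% of all genes. The median log2 difference there was -0.54 over the 8 genes and 0.06 over all genes, and the groups did not overlap for 6 of the 8 genes and for 50.7% of all genes. Markers of other cells moved with tumour material. The 9 neutrophil markers summed on the linear scale to between 323 and 393 in wild-type control cells, all above background, and to between 731 and 1040 in wild-type tumour cells, 7 above background on every array. Within that list Lcn2 alone was higher in every wild-type tumour replicate than in every wild-type control replicate. Ltf, Camp, Mpo, Ctsg, S100a8 and S100a9 were lower in every tumour replicate, Ngp dropped below background, and Elane overlapped. In transgenic cells the sums were 203 to 742 in control and 294 to 430 in tumour replicates. There too Lcn2 alone was higher in every tumour replicate, and the other listed neutrophil markers were lower, with Ngp below background. The 7 fibroblast markers summed to between 1.48 and 23.3 in wild-type control and between 33.7 and 44 in wild-type tumour cells, with 3 and 5 of 7 above background on every array. Of these, Lum went from below background to 2.13, 2.36 and 2.39, Dcn was higher in every wild-type tumour than in every wild-type control replicate, and Pdgfra stayed below background. Col1a1, Col1a2, Col3a1 and Pdgfrb were lower in the wild-type tumour replicates than in wild-type control replicates 1 and 3, and higher than in replicate 2. The transgenic fibroblast sums were 0.992 to 10 in control and 7.93 to 8.98 in tumour replicates, and the part of either cell type in the members' values was not tested.

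The transgene effects were called for fewer of the 8. In control medium Ccnd1 and Cdkn2c were called higher in transgenic cells and none was called lower, where 3.64% of all genes were called higher and 5.33% lower; at an unadjusted p under 0.05 the limma fit held 4 genes higher and 0 lower. With tumour material Cdkn2d and Cdkn1c were called higher and none lower, where 2.01% of all genes were called higher and 2.56% lower. At an unadjusted p under 0.05 in limma there were 4 higher and 1 lower, Cdkn1a. Replicates of the genotypes did not overlap for 6 of the 8 genes and for 48% of all genes with tumour material, and for 2 of the 8 and 21.4% in control medium. The response to tumour material was not called different between genotypes for any of the 8 genes in the limma interaction term, which called 1.02% of all genes for a larger and 0.928% for a smaller (more negative) transgenic response. At an unadjusted p under 0.05 it held 2 genes higher (Cdkn1c and Ccnd3) and 1 lower (Cdkn2c), although the Cdkn1c value includes a group below background. Without transgenic control replicate 1, that term called 1 of the 8 genes higher (Ccnd3, 0.76, adjusted p = 0.0204) and 2 lower (Ccnd1 and Cdkn2c), while over all genes it called 4.12% higher and 3.52% lower. In the same fit 4 of the 8 were higher and 1 lower for the transgene effect in control medium, against 7.46% and 9.72% of all genes. With tumour material 5 of the 8 were higher and 1 lower there, against 6.13% and 7.09% of all genes. The responses in that fit were called higher for 28.6% and lower for 21.8% of all genes in wild-type cells, and for 19.2% and 14.3% in transgenic cells. The comparisons share groups: each control group enters its genotype's response and the transgene effect in control medium.

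**Figure D1:**
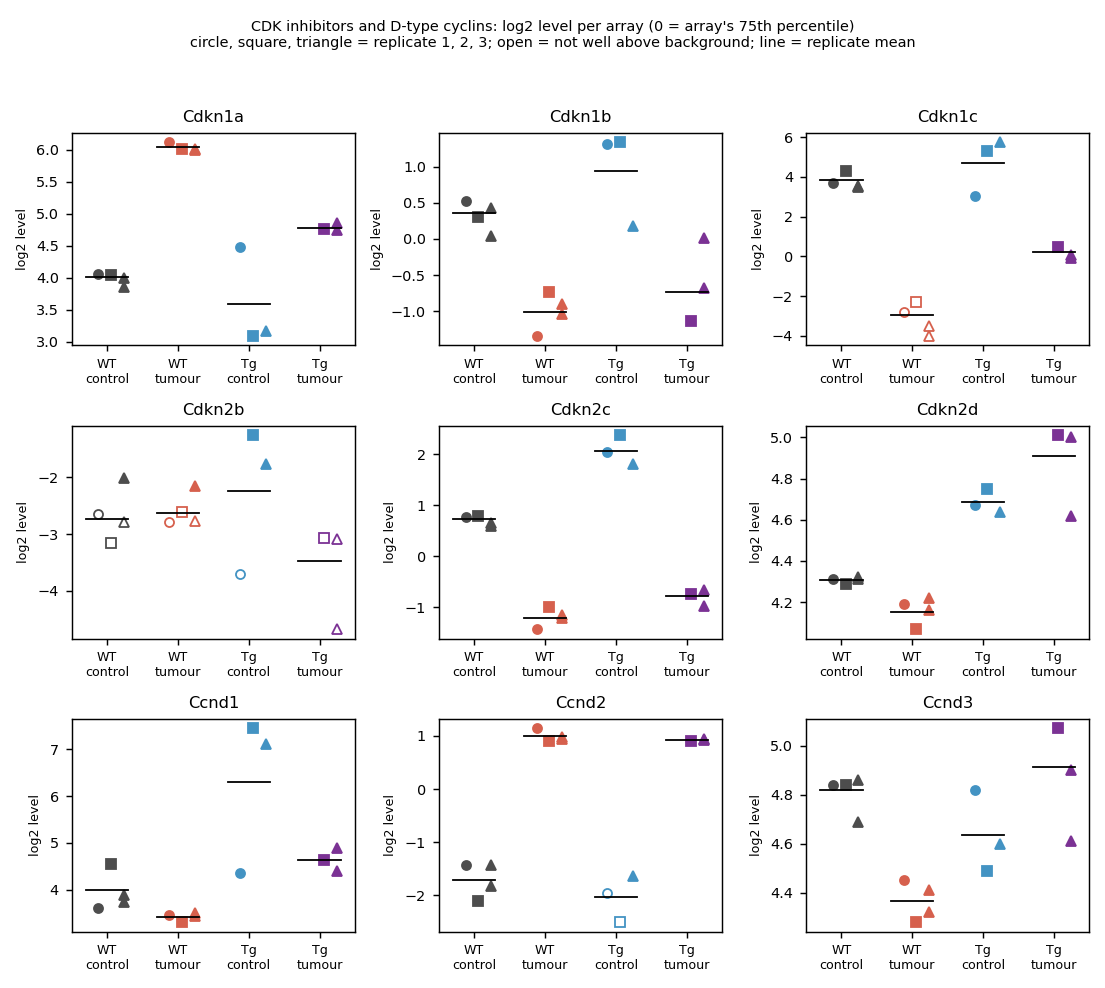
Log2 level (vertical axis, 0 is the 75th percentile of the array) of each of the 9 genes on the 14 arrays, in wild-type (WT) and transgenic (Tg) control and tumour cells; for Cdkn2b the brighter of 2 probes is drawn. Symbols give the replicate number, open symbols a probe not well above background and lines the mean over replicates. Cdkn1a and Ccnd2 lie higher and Cdkn1c and Cdkn2c lower with tumour material in both genotypes, and transgenic control replicate 1 (blue circle) lies apart for Cdkn1a, Cdkn1c and Ccnd1.

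Cdkn1a encodes p21, the CDK inhibitor induced by p53 and by macrophage-activating signals. On its 10-spot probe it was at 4.05, 4.04 and 3.92 in wild-type control cells and at 6.12, 6.02 and 6.00 with tumour material. The means were 4.0 ± 0.07 and 6.05 ± 0.07 (SD, n = 3 each), so every tumour replicate lay above every control replicate. The fitted difference was 2.06 ± 0.23 (SE, 4.16-fold, limma adjusted p = 2.97e-05), and it was 2.03 within slide 1 and 2.14 within slide 2. In transgenic cells the controls were at 4.48, 3.09 and 3.17 and the tumour replicates at 4.76 and 4.80. The rise was 1.39 ± 0.30 (2.62-fold, adjusted p = 0.00568), and 1.70 ± 0.10 (adjusted p = 5.47e-07) without transgenic control replicate 1, whose 4.48 lay above all wild-type controls. Leaving out transgenic control replicate 3 (1.13, adjusted p = 0.0729) or transgenic tumour replicate 3 (1.29, adjusted p = 0.0813) ended this call.

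With tumour material p21 RNA was lower in both transgenic replicates than in the 3 wild-type ones, an absence of overlap found for 48% of all genes. The difference was -1.05 ± 0.30 (2.06-fold lower, adjusted p = 0.078) and did not pass the test. It passed in 4 of 23 other settings. Among them were the fits without transgenic control replicate 1 (-1.19 ± 0.10, adjusted p = 3.19e-05), without transgenic control replicate 2 (-0.92, adjusted p = 0.0277) and without the slide term (-1.25, adjusted p = 0.0123). In control medium the transgene effect was -0.38 ± 0.25 (adjusted p = 0.376) with all replicates and -0.83 ± 0.09 (adjusted p = 0.000154) without replicate 1.

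The second Cdkn1a probe, a single spot that carries the accession of the other transcript variant, gave a different picture in transgenic cells. It was at -1.36, -1.29 and -1.56 in wild-type control and 0.24, 0.37 and 0.20 in wild-type tumour cells, a rise of 1.69 ± 0.57 (3.23-fold, adjusted p = 0.0326 in the fit of every kept probe). In transgenic cells it was at 0.57, -2.92 and -2.21 in control and -2.65 and -1.69 in tumour replicates, above background on 2 of 3 arrays in each group, and the difference was -0.24 ± 0.74 (adjusted p = 0.852). Transgenic control replicate 1 was thus its highest value on the whole series, 3.14 above the mean of replicates 2 and 3. The difference between the probes was not tested.

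**Figure D2:**
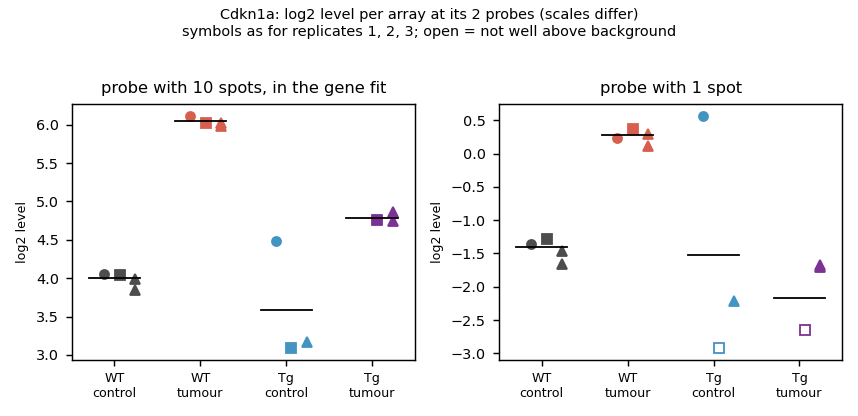
Log2 level of Cdkn1a (vertical axes, on different scales) per array at its 10-spot probe (left) and its 1-spot probe (right) in the 4 groups; symbols give the replicate and open symbols a probe not well above background. The wild-type rise shows at both probes, while the transgenic tumour replicates, at 4.76 and 4.80 on the left, lie at -2.65 and -1.69 on the right.

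Cdkn1b encodes p27, which accumulates in resting cells and falls when they enter the cycle. It was at 0.52, 0.31 and 0.24 in wild-type control and -1.34, -0.73 and -0.97 in wild-type tumour cells, with no overlap. It fell by 1.33 ± 0.27 (2.52-fold, adjusted p = 0.00186), or -1.46 within slide 1 and, with 1 array a group and no call, -0.94 within slide 2 (adjusted p = 0.446). The transgenic replicates were at 1.31, 1.34 and 0.18 in control and -1.13 and -0.34 in tumour, again without overlap. There Cdkn1b fell by 1.27 ± 0.35 (2.42-fold, adjusted p = 0.0185). The call ended when wild-type control replicate 3 was left out (adjusted p = 0.0547), as it did without wild-type tumour replicate 3 (adjusted p = 0.0643), transgenic tumour replicate 2 (adjusted p = 0.0574) or the filter on dim probes (adjusted p = 0.0511) and within slide 2 (-0.79, adjusted p = 0.366). Transgenic and wild-type replicates overlapped in both media, with differences of 0.66 ± 0.28 (adjusted p = 0.176) in control medium and 0.71 ± 0.34 (adjusted p = 0.297) with tumour material. The first of these was called without transgenic control replicate 3 (0.98, adjusted p = 0.0495) and within slide 1 (0.91, adjusted p = 0.0276).

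Cdkn1c encodes p57, an imprinted inhibitor expressed from the maternal allele. It was bright in wild-type control cells, at 3.70, 4.30 and 3.52, and not well above background on any of the 4 wild-type tumour arrays. The wild-type tumour mean was therefore at least 92.8-fold lower on the main scale, where the bound uses for each array the higher of the dimmest signal well above background and the probe's own. The size depended on the background correction. With normexp the fitted log2 difference was -3.98 ± 0.44, against -6.91 ± 0.54 in the main fit. In transgenic cells it was at 3.04, 5.30 and 5.75 in control and 0.45 and -0.01 in tumour replicates, above background on all of these arrays. There it fell by 4.54 ± 0.70 (23.2-fold, adjusted p = 0.000609), and fell by 5.16 ± 0.43 without transgenic control replicate 1. Transgenic tumour cells thus kept a measurable p57 signal, at least 7.52-fold above the wild-type tumour bound (adjusted p = 0.0193 in the fit). This call was lost with normexp background correction (0.64 ± 0.57, adjusted p = 0.551), without wild-type tumour replicate 3 (2.14, adjusted p = 0.383), without transgenic tumour replicate 3 (3.55, adjusted p = 0.196) and within slide 2 (4.14, adjusted p = 0.0529). The difference between the genotypes' responses could be given only as a bound, a wild-type fall larger by at least 2.05 on the log2 scale. That bound holds for the main scale and includes transgenic control replicate 1, without which the transgenic fall was larger. The interaction term, which rests on values below background, did not pass (adjusted p = 0.262) and was -0.24 with normexp. In control medium the transgene effect was 0.93 ± 0.58 (adjusted p = 0.345), with transgenic replicate 1 below all 3 wild-type replicates and replicates 2 and 3 above them. Without replicate 1 it was 1.91 ± 0.39 (adjusted p = 0.00684).

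Cdkn2c encodes p18, the INK4 protein found in many dividing and differentiating cells. Its replicates separated the 4 groups without overlap, in the order transgenic control (2.04, 2.37, 1.80), wild-type control (0.77, 0.79, 0.62), transgenic tumour (-0.73, -0.81) and wild-type tumour (-1.42, -1.0, -1.18). The last pair of neighbours in that order was not called different (0.53 ± 0.17, adjusted p = 0.125; with transgenic control replicate 1 left out, 0.54, adjusted p = 0.0483), and wild-type control was not tested against transgenic tumour cells. With tumour material it fell by 1.90 ± 0.13 in wild-type cells (3.73-fold, adjusted p = 7.77e-07) and by 2.76 ± 0.18 in transgenic cells (6.75-fold, adjusted p = 9.17e-07). In control medium it was 2.61-fold higher with the transgene (1.38 ± 0.14, adjusted p = 0.000226), 1.47 within slide 1 and 1.21 within slide 2, where 1 array a group gave no call (adjusted p = 0.189). Leaving out transgenic control replicate 1, which was at 2.04 within the range of the others, gave 1.44 ± 0.16. The transgenic response was more negative than the wild-type one by -0.86 ± 0.22 (adjusted p = 0.0867), which passed without transgenic control replicate 1 (-0.90, adjusted p = 0.0257), without the slide term (-0.95, adjusted p = 0.0418) and with normexp (-0.95, adjusted p = 0.0103).

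Cdkn2d encodes p19, another INK4 protein, and had the smallest fitted responses to tumour material among the tested inhibitors. It was at 4.31, 4.29 and 4.31 in wild-type control, 4.19, 4.07 and 4.19 in wild-type tumour, 4.67, 4.75 and 4.64 in transgenic control and 5.01 and 4.81 in transgenic tumour replicates. All transgenic replicates lay above all wild-type ones. The genotypes did not overlap for 21.4% of all genes in control medium and for 48% with tumour material. The transgene effect with tumour material was 0.71 ± 0.14 (1.64-fold, adjusted p = 0.0107), within slide 2 it was 0.65 (adjusted p = 0.461), and the call was lost without wild-type tumour replicate 3 (0.77, adjusted p = 0.135). In control medium the effect was 0.38 ± 0.11 and missed the threshold (adjusted p = 0.0599). It passed with quantile normalisation (0.40, adjusted p = 0.0416), with the authors' deposited normalised values (0.40, adjusted p = 0.0418), with normexp (0.63, adjusted p = 0.00484) and without transgenic control replicate 1 (0.38, adjusted p = 0.0473). The responses to tumour material, -0.15 ± 0.10 in wild-type and 0.19 ± 0.14 in transgenic cells, were not called (adjusted p = 0.283 and 0.36). Without slide column 4, which left only replicate 3 of the transgenic control, the transgenic response was 0.37.

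Cdkn2b encodes p15, the INK4 inhibitor induced by TGF-beta, and was at the edge of detection. Its brighter probe was above background on 1 of 4 wild-type control, 1 of 4 wild-type tumour, 2 of 3 transgenic control and 0 of 3 transgenic tumour arrays, and its dimmer probe on none. The brighter probe was at -3.71, -1.26 and -1.76 in the transgenic control replicates, so that replicate 1 was again the one apart. Against them the transgenic tumour mean was at least 1.60-fold lower, and no test was made.

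Ccnd1, the cyclin D1 gene that growth factors induce, had its highest levels in transgenic control cells and its widest spread there. It was at 3.61, 4.56 and 3.81 in wild-type control, 3.47, 3.31 and 3.47 in wild-type tumour, 4.36, 7.45 and 7.11 in transgenic control and 4.64 and 4.65 in transgenic tumour replicates. Transgenic control replicate 1 lay at -2.92 relative to the mean of the other two and within the wild-type control range. The transgene effect in control medium was 2.33 ± 0.57 (5.03-fold, adjusted p = 0.0271) with all replicates and 3.39 ± 0.23 (adjusted p = 5.62e-06) without replicate 1. The call at all replicates was fragile: it was lost without transgenic control replicate 2 (1.66, adjusted p = 0.0763) or 3 (1.93, adjusted p = 0.0781), with wild-type control replicate 1 (2.24, adjusted p = 0.0686) or 3 (2.02, adjusted p = 0.198) left out, without wild-type tumour replicate 3 (adjusted p = 0.0505) or transgenic tumour replicate 3 (adjusted p = 0.0846), without the filter on dim probes (adjusted p = 0.0554), with repeat arrays averaged first (adjusted p = 0.0858) and when slide column 4 was added to the model (adjusted p = 0.0547). It was 1.89 (adjusted p = 0.172) within slide 1 and 3.36 (adjusted p = 0.0594) within slide 2. In no setting did its direction change.

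Tumour material left cyclin D1 uncalled in both genotypes in the main fit. The difference was -0.52 ± 0.53 (adjusted p = 0.47) in wild-type and -1.84 ± 0.70 (adjusted p = 0.0754) in transgenic cells. With the replicate number as a block, which kept all replicates, the transgenic difference was called (-1.99, limma adjusted p = 0.0397). It was -2.46 within slide 2 and -2.34 without slide column 4, which each left only replicate 3 of the transgenic control. Without transgenic control replicate 1 the wild-type and transgenic differences were -0.49 ± 0.18 (adjusted p = 0.0365) and -2.53 ± 0.25 (adjusted p = 2.21e-05). Without it the difference between the responses was -2.04 ± 0.31 (adjusted p = 0.00224), in place of -1.32 ± 0.88 (adjusted p = 0.632). The transgene effect with tumour material was likewise 1.01 ± 0.69 (adjusted p = 0.469) with it and 1.35 ± 0.23 (adjusted p = 0.00369) without. Of the fibroblast markers, Col1a1 was at -0.10, -3.69 and -1.44 in the 3 transgenic control and 0.94, -2.43 and 0.80 in the 3 wild-type control replicates, lowest in the replicate of each group where Ccnd1 was highest. Col1a2, Dcn and Pdgfrb were also lowest in those replicates, although Pdgfrb was below background in transgenic control cells. Col3a1 did not follow that order in transgenic cells, at -5.10, -4.57 and -1.57, and was at 1.22, -3.20 and 1.48 in the wild-type control replicates. Lum and Pdgfra were below background in both control groups, and the part of fibroblasts in the Ccnd1 result was not tested.

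**Figure D3:**
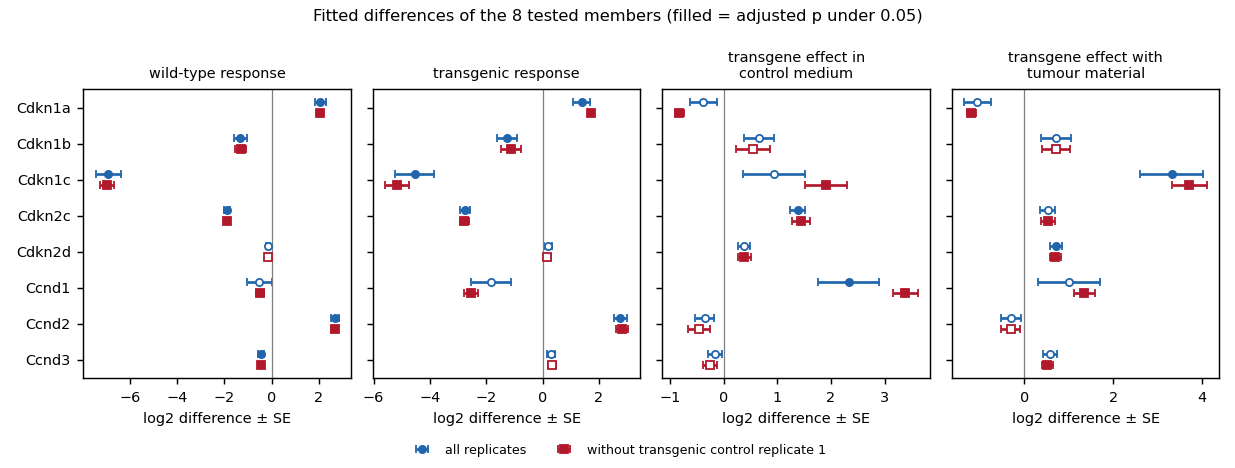
Fitted log2 differences with their SE (horizontal axes, on different scales) of the 8 tested genes in 4 comparisons, from the fit over all replicates (blue circles) and without transgenic control replicate 1 (red squares); filled symbols have an adjusted p under 0.05. Removing the replicate moves Ccnd1 from 2.33 to 3.39 and Cdkn1c from 0.93 to 1.91 in control medium; the Cdkn1c value in wild-type cells rests on a tumour group below background.

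Ccnd2, the cyclin D2 gene, rose in both genotypes, where Cdkn1b, Cdkn1c and Cdkn2c fell. It was at -1.43, -2.10 and -1.63 in wild-type control and 1.14, 0.90 and 0.95 in wild-type tumour cells, a rise of 2.68 ± 0.17 (6.43-fold, adjusted p = 3.48e-07). In transgenic cells it was at -1.96, -2.50 and -1.63 in control, above background on 1 of 3 arrays, and at 0.91 and 0.94 in tumour replicates. The rise there was 2.76 ± 0.22 (6.77-fold, adjusted p = 5.4e-06). The responses differed by 0.08 ± 0.28 (adjusted p = 0.957). Within slide 1 the wild-type rise was 2.77, and within slide 2 it was 2.40 in wild-type and 2.56 in transgenic cells. Transgenic and wild-type replicates overlapped in both media.

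Ccnd3, the cyclin D3 gene, had the smallest fitted responses to tumour material among the D cyclins. It was at 4.84, 4.84 and 4.77 in wild-type control and 4.45, 4.28 and 4.36 in wild-type tumour replicates, and it fell by 0.44 ± 0.12 (1.36-fold, adjusted p = 0.00982). The call was lost without wild-type tumour replicate 3 (-0.47, adjusted p = 0.0597) and within slide 2 (-0.37, adjusted p = 0.579). The transgenic replicates were at 4.82, 4.49 and 4.6 in control and 5.07 and 4.76 in tumour, and the response of 0.29 ± 0.15 was not called (adjusted p = 0.191). Without slide column 4, which left only replicate 3 of the transgenic control, this response was 0.39. With tumour material both transgenic replicates lay above all 3 wild-type ones (0.58 ± 0.15, adjusted p = 0.0551). Such an absence of overlap was found for 48% of all genes in this comparison. The difference passed in 6 of 23 other settings, among them without transgenic control replicate 1 (0.52, adjusted p = 0.0244) or 2 (0.58, adjusted p = 0.0224). A second Ccnd3 probe, with another variant's accession, gave -0.32 ± 0.14 in wild-type (adjusted p = 0.0956) and 0.08 ± 0.19 in transgenic cells (adjusted p = 0.791).

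The genes that D cyclins and their inhibitors act on were described by lists chosen with earlier results known. Of 15 tested E2F-responsive S phase and proliferation genes (17 listed), 9 were called higher and 0 lower in transgenic than wild-type control cells, where 3.64% of all genes were called higher (13 higher and 0 lower at an unadjusted p under 0.05 in limma). Without transgenic control replicate 1, 13 of the 15 were called higher (7.46% of all genes), and 11 without the arrays of slide column 4 (3.89%). With tumour material none of the 15 was called different between genotypes (limma, adjusted p under 0.05), and 0 passed at an unadjusted p under 0.05. In the fit without transgenic control replicate 1, 1 of the 15 was called higher there, Rrm2, where 6.13% of all genes were. Tumour material called 11 of 15 lower and 1 higher in transgenic cells (10.2% and 15.2% of all genes), and 6 lower and 1 higher in wild-type cells (16.8% and 23.2%). With transgenic control replicate 1 left out these counts were 13 lower and 1 higher (14.3% and 19.2% of all genes) and 9 lower and 3 higher (21.8% and 28.6%). With all replicates the gene called higher in both was Tyms, thymidylate synthase, at -1.66, -1.85 and -1.05 in wild-type control and 1.61, 1.60 and 2.02 in wild-type tumour replicates. Ccna2, cyclin A2 of S phase, was at -0.53, 0.08 and -0.29 in wild-type control and 1.86, 3.53 and 3.15 in transgenic control cells (3.08 ± 0.35, adjusted p = 0.000363). It fell by 4.75 ± 0.43 with tumour material in transgenic cells, to -1.53 and -1.78, and by 1.68 ± 0.33 in wild-type cells. Rrm2, a subunit of ribonucleotide reductase, was 2.78 ± 0.30 higher in transgenic control cells (adjusted p = 0.000261), and Mcm5, of the replicative helicase, 2.08 ± 0.38 (adjusted p = 0.00602). Replicate 1 was the lowest of the transgenic controls for Ccna2, Rrm2 and Mcm5, as for Ccnd1.

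**Figure D4:**
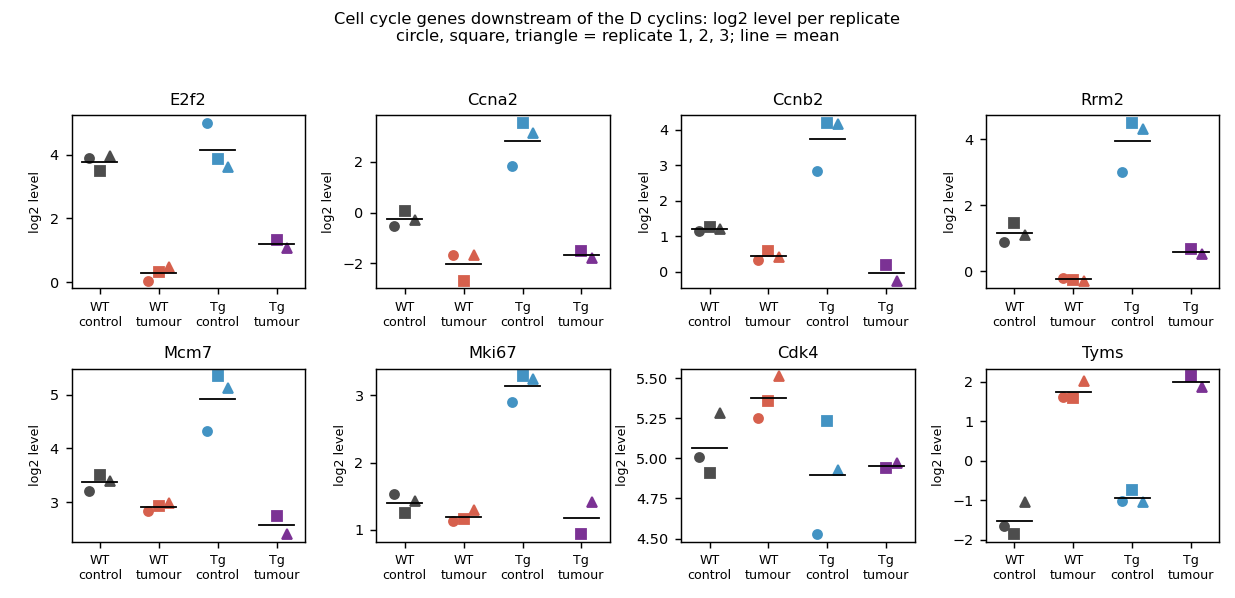
Log2 level (vertical axes) per replicate of 6 E2F or proliferation genes, of Cdk4 (a D cyclin partner) and of Tyms in the 4 groups; symbols give the replicate number and lines the mean. Ccna2, Ccnb2, Rrm2, Mcm7 and Mki67 are highest in transgenic control cells, E2f2 is low with tumour material in both genotypes, and Tyms runs the other way.

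Among 7 tested CDK and cyclin partners (9 listed), Ccna2 and Ccnb2 were called higher in transgenic control cells, where 3.64% of all genes were. Without transgenic control replicate 1 these were 5 of 7, with Ccnb1, Ccne1 and Cdk6 (7.46% of all genes). Ccna2, Ccnb1 and Ccnb2 (cyclins of S phase and mitosis) fell with tumour material in both genotypes, where 16.8% of all genes were called lower in wild-type and 10.2% in transgenic cells. The Ccnb2 call in wild-type cells held in 13 of 24 other settings. None of the 7 was called in limma for the transgene effect with tumour material, where Cdk4 (lower) passed at an unadjusted p under 0.05. Without that replicate Ccnb1 was called higher and Cdk4 lower there (6.13% and 7.09% of all genes). Cdk6 was then called higher with tumour material in wild-type cells (28.6% of all genes). Cdk4, the kinase bound by D cyclins, was at 5.01, 4.91 and 5.28 in wild-type control, 5.25, 5.36 and 5.51 in wild-type tumour, 4.53, 5.23 and 4.93 in transgenic control and 4.94 and 4.97 in transgenic tumour replicates, and was called in no comparison with all replicates. Of 12 tested pocket proteins and E2F factors (13 listed), 2 were called higher and 3 lower in wild-type and 1 higher and 1 lower in transgenic cells with tumour material. The shares over all genes were 23.2% and 16.8%, and 15.2% and 10.2%. Without transgenic control replicate 1 the transgenic counts were 1 and 2 (19.2% and 14.3% of all genes). E2f2, an activating E2F, fell by 3.51 ± 0.26 in wild-type (adjusted p = 1.06e-06) and 2.95 ± 0.34 in transgenic cells (adjusted p = 7.11e-05), while Rb1, the retinoblastoma gene, rose by 0.35 ± 0.10 (adjusted p = 0.0122) in wild-type cells. Rbl1, encoding the pocket protein p107, was the 1 gene of this list called in control medium (0.77 ± 0.19 higher with the transgene, adjusted p = 0.028), where 3.64% of all genes were called higher. That call held in 14 of 24 other settings. None was called for the transgene with tumour material in limma, where 1 of the 12, E2f2 (higher), passed at an unadjusted p under 0.05. Without transgenic control replicate 1, 2 of the 12, E2f6 and Rbl1, were called higher in control medium and 1, E2f2, with tumour material, against 7.46% and 6.13% of all genes.

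The p53 targets other than Cdkn1a were called in both directions with tumour material. Of 14 tested (15 listed), 3 were called higher and 4 lower in wild-type cells, where 23.2% and 16.8% of all genes were, and 3 higher and 5 lower in transgenic cells, where 15.2% and 10.2% were. Leaving out transgenic control replicate 1 gave counts of 5 higher and 5 lower, and 3 higher and 6 lower, against 28.6% and 21.8%, and 19.2% and 14.3%, of all genes. Fas, a death receptor gene, rose by 1.94 ± 0.40 (adjusted p = 0.00217) in wild-type and 2.55 ± 0.52 (adjusted p = 0.00361) in transgenic cells. Sesn1, a stress-induced regulator of growth signalling, fell by 2.50 ± 0.37 and 1.99 ± 0.49, and Trp53inp1 by 1.78 ± 0.22 and 1.73 ± 0.29. Mdm2, the ubiquitin ligase of p53 and a target of it, was at 6.03, 6.20 and 6.17 in wild-type control and 7.08, 7.17 and 7.03 in wild-type tumour replicates. None of the 14 was called in limma for the transgene in control medium (1 higher and 3 lower at an unadjusted p under 0.05). In the fit without that replicate Gadd45a was called higher and Fas and Sesn2 lower there (7.46% and 9.72% of all genes). With tumour material 1 was lower with the transgene, Btg2, an antiproliferative gene (-1.0 ± 0.16, adjusted p = 0.00371), where 2.56% of all genes were. Fas joined it without that replicate, where 7.09% of all genes were called lower.

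Of 9 tested regulators of p27 and p57 turnover (10 listed), 1 was called higher with tumour material in wild-type cells (Skp1, an SCF ubiquitin ligase subunit, 0.53 ± 0.14, adjusted p = 0.00972), and 1 lower in transgenic cells. Over all genes 23.2% were called higher in the former and 10.2% lower in the latter. The gene called lower was Cks1b, a cofactor for p27 recognition, which fell by 1.65 ± 0.27 (adjusted p = 0.000814). In control medium Cks1b was 0.89 ± 0.22 higher with the transgene (adjusted p = 0.0274), the 1 gene of the list called there, where 3.64% of all genes were called higher. That call held in 14 of 24 other settings. None was called for the transgene with tumour material in limma, also at an unadjusted p under 0.05. Without transgenic control replicate 1, Skp2 was called higher and Cul4a lower beside Cks1b in control medium, 1 was called higher and 2 lower with tumour material in transgenic cells, and 1 higher and 1 lower in wild-type cells. The shares over all genes in that fit were 7.46% and 9.72%, 19.2% and 14.3%, and 28.6% and 21.8%. Of 9 tested FOXO factors and other FOXO targets (12 listed, Cdkn1b being a known FOXO target), 2 were called higher and 5 lower with tumour material in wild-type cells and 1 higher and 2 lower in transgenic cells. The shares over all genes were 23.2% and 16.8%, and 15.2% and 10.2%. Bcl6, a repressor gene, was down by 1.34 ± 0.17 in transgenic cells and Klf2, a quiescence-associated factor gene, by 1.46 ± 0.25 in wild-type cells. None of the 9 was called in limma for the transgene in either medium; at an unadjusted p under 0.05 there were 1 higher and 1 lower in control medium and 2 lower with tumour material. Without that replicate the transgene was called for Klf2, lower, in control medium (9.72% of all genes) and for Txnip, lower, with tumour material (7.09%). Of 6 tested regulators of D cyclin stability and transport (7 listed), 1 was called higher in wild-type cells with tumour material, where 23.2% of all genes were. It was Cry2, a circadian repressor gene (0.78 ± 0.22, adjusted p = 0.014). None was called in limma in the other 4 comparisons, also at an unadjusted p under 0.05. Without that replicate Cry2 was also called higher in transgenic cells with tumour material (19.2% of all genes). With tumour material it was then called lower with the transgene (7.09%).

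The genes around Cdkn1c in its imprinted domain on chromosome 7 were called in both directions with tumour material in wild-type cells. Of 8 tested (12 listed), 2 were called higher and 3 lower there, against 23.2% and 16.8% of all genes, and 0 higher and 4 lower in transgenic cells, against 15.2% and 10.2%. With transgenic control replicate 1 left out, 4 were lower in wild-type cells, against 21.8% of all genes. Slc22a18, a transporter gene of the domain, was at 1.14, 1.14 and 1.21 in wild-type control and -1.40, -0.93 and -0.97 in wild-type tumour replicates. It fell by 2.25 ± 0.22 (adjusted p = 8.4e-06) there and by 1.91 ± 0.28 (adjusted p = 0.000443) in transgenic cells. The antisense RNA Kcnq1ot1, whose expression silences the domain on the paternal allele, fell by 1.84 ± 0.26 (adjusted p = 0.000142) and 1.60 ± 0.33 (adjusted p = 0.00425); its probe was matched by its RefSeq accession. Cd81, a tetraspanin gene, fell by 1.17 ± 0.19 and 1.35 ± 0.24 and was higher with the transgene in both media (1.24 ± 0.20, adjusted p = 0.00277, and 1.06 ± 0.24, adjusted p = 0.0267). H19, a noncoding RNA of the neighbouring imprinted domain, went the other way with the transgene: it was at 1.90, 2.24 and 2.19 in wild-type control, -1.68, -0.88 and 0.50 in transgenic control, 2.25, 1.98 and 3.44 in wild-type tumour and -3.48 and -2.41 in transgenic tumour replicates. Its transgene effect was -2.90 ± 0.49 (adjusted p = 0.00362) in control medium and -6.22 ± 0.58 (adjusted p = 0.000159) with tumour material, where it was above background on 1 of 3 transgenic arrays. Ascl2, a transcription factor gene of the domain, was above background on the wild-type tumour arrays alone, at least 5.73-fold above wild-type control and at least 6.58-fold above transgenic tumour cells. In total the transgene was called for 1 gene higher and 1 lower of the 8 in control medium and 1 higher and 2 lower with tumour material. The shares over all genes were 3.64% and 5.33%, and 2.01% and 2.56%.

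Of 10 tested genes of the M-CSF receptor and of proliferation restraint in macrophages (10 listed), 4 were called higher and 1 lower with tumour material in wild-type cells and 3 higher and 0 lower in transgenic cells. The shares over all genes were 23.2% and 16.8%, and 15.2% and 10.2%. Klf4, a zinc finger factor gene known to restrain division, was at 1.96, 1.73 and 1.82 in wild-type control, 2.96, 2.84 and 2.85 in wild-type tumour, 1.03, -0.01 and -0.05 in transgenic control and 2.43 and 2.29 in transgenic tumour replicates. The transgene effect in control medium was -1.49 ± 0.22 for Klf4 (adjusted p = 0.0015) and -0.93 ± 0.12 for the shared cytokine receptor gene Csf2rb (adjusted p = 0.000747), the 2 genes called there. Of all genes 5.33% were called lower in that comparison. With tumour material 1 gene was called lower with the transgene, Spi1, encoding the myeloid factor PU.1 (-0.51 ± 0.12, adjusted p = 0.0331), where 2.56% of all genes were. The Spi1 call held in 12 of 23 other settings, with an adjusted p of up to 0.425. Without transgenic control replicate 1, 1 gene of this list was higher with the transgene and 2 lower in control medium, and 1 higher and 3 lower with tumour material. The shares over all genes were 7.46% and 9.72%, and 6.13% and 7.09%. In that fit the responses were called higher for 5 and lower for 1 in wild-type cells (28.6% and 21.8% of all genes) and for 3 and 1 in transgenic cells (19.2% and 14.3%).

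For each tested member the 3 genes with the most similar levels over the 11 replicates were found among 10973 genes with a symbol, as a description with no p; the replicates share group, medium and slide. Cdkn1a ran closest to Mmp9, a secreted gelatinase gene (Pearson r = 0.991), then Bsg (0.985) and Msantd3 (0.982). Cdkn1c ran closest to Reps2, Stard4 and Insig1 (0.992 each), of which Stard4 and Insig1 are sterol-regulated genes. Ccnd2 ran closest to P2ry2, a nucleotide receptor gene (0.990), Mocs2 (0.988) and the Notch pathway factor gene Rbpj (0.987), and Cdkn2c to Brd3 (0.988), Cmss1 (0.986) and Mtmr10 (0.983). Ccnd1 ran closest to Pakap (0.985), Cd4 (0.979) and Tuft1 (0.970), and Cdkn1b to Nfe2l2, the gene of the oxidative stress factor NRF2 (0.977), with Gpr65 and Lbr (0.971 each). For Cdkn2d the nearest were Mpp1 (0.965), Ivd (0.961) and Sptbn1 (0.928). Ccnd3 had the loosest neighbours, Flot1 (0.927), 4930506A18Rik (0.885) and Fut8 (0.882).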

How the data were processed

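Total RNA of 14 one-colour Agilent arrays (Cy3, from 200 ng RNA) was measured, and the scanner files were the authors' Feature Extraction output (version 10.7.3.1, per the submitters' processing notes and the file headers). The deposited intensity is the processed signal, background-subtracted and detrended per the file headers, and the deposited matrix of log2 values, used as an alternative, has a median of 2.85 in every column. No header or label states its normalisation, but on every array at least 99.9% of its values lay within 0.1 of quantile-normalised log2 scanner signals, so its scale and direction are those of the scanner and genes were not centred.

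Outlier and control spots were left out and the linear signals averaged over the spots of each probe. The log2 of that average was then scaled to the array's 75th percentile. A probe was kept if at least 0.5 of its spots were well above background on all arrays of 1 group or more, which left 20208 probes and, with the brightest probe per gene, 15834 genes. Symbols came from RefSeq accessions (28331 of 55681 probes matched 1 symbol, 10974 tested genes had one). limma 3.58.1 in R 4.3.3 fitted 4 group means with slide as a term and repeat arrays as a random block (correlation 0.0614), with Benjamini-Hochberg adjustment over all genes and a threshold of 0.05. Replicate numbers are shared between groups, but deviations of same-numbered samples correlated at between -0.183 and 0.203, so they were not treated as pairs. The normexp alternative used the median signal, since the mean signal column was not in the files, with an offset of 50.

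The members and the gene lists were chosen with earlier results of these data known. Named genes were all 9 members, up to 4 genes of each list and comparison with the largest called changes and no overlap, the 3 nearest patterns per member, and Tfeb; Cdk4, Mdm2, the plotted genes and genes called only with a replicate left out were named after their values were seen. The number of arrays limits precision.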

Additional observations from a re-analysis of the deposited data

Results flagged for a closer look

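The response to tumour material differed between genotypes for 8 listed genes in the limma interaction term (transgenic minus wild-type response, log2). The 8 were listed genes named here that were above background on at least 1 array of every group. Such genes had been named for called changes, so the 8 are not a share of a fixed set. Over all 15834 genes in that fit, 1.02% were called higher and 0.928% lower. Ascl2 was called too (-3.35 ± 0.64, adjusted p = 0.0202, held in 15 of 22 other settings). It was left out of the 8 because it was above background on the wild-type tumour arrays alone. Groups of 2 or 3 replicates were not tested for outlying samples. By list, the term called 4 of 15 E2F-responsive genes and 2 of 7 CDK and cyclin partners lower, Ccna2 being in both. It called 2 of 8 genes around Cdkn1c lower, 2 of 10 M-CSF receptor and restraint genes higher, and none in the other lists. Without transgenic control replicate 1 it called 11 of the 15 E2F-responsive genes lower, where 3.52% of all genes were.

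Among cell cycle genes the transgenic response was more negative for Ccnb2 (-3.14 ± 0.43, adjusted p = 0.00349), Ccna2 (-3.07 ± 0.54, adjusted p = 0.0136), Mcm7 (-2.06 ± 0.37, adjusted p = 0.0141), Rrm2 (-2.06 ± 0.46, adjusted p = 0.0451) and Mki67 (-1.73 ± 0.24, adjusted p = 0.00349). In each of these 5 genes the transgenic control level was the highest of the 4 groups. Of the genes near Cdkn1c, it was more negative for H19 (-3.32 ± 0.74, adjusted p = 0.0458), which was above background on 1 of 3 transgenic tumour arrays. It was more positive for Csf1, the gene of M-CSF (2.10 ± 0.44, adjusted p = 0.0335), at 1.01, 2.11 and 2.17 in transgenic control and 4.21 and 4.07 in transgenic tumour replicates, and for the receptor gene Csf2rb (0.94 ± 0.19, adjusted p = 0.0242). Every one of these 8 differences kept its direction in the other settings that could be run, but many calls did not hold. The call held in 6 of 22 settings for H19, 11 of 23 for Rrm2, 11 of 23 for Csf1, 12 of 23 for Csf2rb, 17 of 22 for Ccna2, 19 of 23 for Mcm7, 20 of 23 for Ccnb2 and 21 of 23 for Mki67.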

How the results depend on the processing

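Called differences of the 8 tested genes kept their direction under each of the 24 other settings that could be run; the calls that were lost are given with each gene in the report. No scaling moved the median difference of all genes by over 0.1, but the share of calls that were higher in the wild-type response was 58% with the main scaling, 48.6% with quantile normalisation and 48.7% with the deposited matrix, in the transgenic response 59.9%, 50.7% and 50.6%, and for the transgene in control medium 40.6%, or 49.8% with normexp. Transgenic responses and tumour comparisons could not be made within slide 1, which held no transgenic tumour array, and Cdkn1c and Ccnd2 could not be fitted when a probe had to be above background on every array. Some uncalled differences changed sign. For the transgene effect in control medium these were Ccnd3 at 0.01 with slide column 4 as a term, and Cdkn1b at -0.06 and Tfeb at -0.02 without slide column 4. For the difference of responses these were Cdkn1b at -0.24 without the slide term, -0.31 with repeat arrays averaged first and -0.06 with normexp, Cdkn1c at -0.24 with normexp (2.38 in the fit reported, though wild-type tumour cells were below background), and Ccnd2 at -0.14 without slide column 4. Leaving out 1 replicate moved the difference of responses to between -0.19 and 0.33 for Ccnd2 and to between -0.55 and 0.52 for Cdkn1b.

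Counts of genes called over the whole table were less stable, and the cause was not tested. Leaving out 1 replicate gave 4017 to 7979 genes for the wild-type response (6339 with all), 2302 to 5297 for the transgenic response (4016), 422 to 2721 for the transgene effect in control medium (1421), 131 to 2093 for it with tumour material (725) and 45 to 1210 for the difference of responses (308). The highest of these counts came without transgenic control replicate 1. Slide 2 alone, whose spread came from the 3 transgenic tumour arrays, gave 766, 1766, 0, 0 and 0 in limma, with 2117, 1761 and 1380 genes at an unadjusted p under 0.05 in the last 3. For the transgene effect in control medium the count was 917 with no filter, 767 with repeat arrays averaged first and 631 with slide column 4 as a term. With tumour material it was 1111 without the slide term, 447 with slide column 4 as a term and 1577 without that column. For the difference of responses it was 183 with no filter, 176 with repeat arrays averaged first, 199 with slide column 4 as a term and 824 without that column. Arrays of slide column 4 (transgenic control replicates 1 and 2 and 1 transgenic tumour array) had a detrending spread of 0.253 to 0.331 against 0.0964 to 0.126 on the others.

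With the replicate number as a replicate block, which the samples do not support as a pairing, the counts were 6169, 3681, 1130, 539 and 276, and Ccnd1 was called lower in transgenic cells with tumour material (-1.99, adjusted p = 0.0397); no other call among the 8 genes changed, and the Tfeb difference with tumour material was no longer called (0.68, adjusted p = 0.081).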
